A study of Mus musculus with 20 samples.

Results

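The 10 genes described here are targets that p53 switches on: Cdkn1a, Mdm2, Ccng1, Trp53inp1, Bbc3, Sesn2, Zmat3, Phlda3, Eda2r and Aen. They were read in 20 mouse tumours that differ in the organoid line they grew from, and 1 of the 5 lines has a genotype without P. Each gene was taken from the probe set that names it alone and has the highest mean over the 20 arrays, which gave all 10 genes a probe set among 17097 genes in all. A filter on dim genes kept 15556 genes and 9 of the 10 members. Eda2r stayed below it on every array.

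p53 is a transcription factor that is held at a low level in unstressed cells and accumulates after DNA damage or oncogene activity. It binds a paired motif in or near its target genes and raises their transcription, so that cells stop dividing, repair their DNA or die. In the intestine it is known for cell cycle arrest through Cdkn1a and for death of crypt cells through Bbc3 after irradiation. Mdm2 is a target that feeds back: its protein marks p53 for degradation.

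The tumours grew in the caecum of C57BL/6J mice, which are syngeneic with the mouse tumour organoids (MTO). Lines MTO68 and MTO93 are parental lines of genotype LAKTP, MTO140 is a line labelled LiM of the same genotype, MTO54 is a parental LAKP line and MTO207 is a parental LAKT line. What each letter stands for is not in the labels. In the published model that uses them, L stands for an Lgr5-driven Cre, which acts in intestinal stem cells, A for Apc, T for the TGF-beta type II receptor gene and P for p53. All lines share the letters L, A and K. MTO207 is the only line without P, and the other 4 are called the lines with P below. In that model the letters A, T and P mark altered alleles, so a line with P has altered p53 and MTO207 does not. Each line gave 2 control tumours and 2 from mice that received galunisertib, which blocks the kinase of the type I TGF-beta receptor. The dose was 10 mg, gavaged 2 times per day between day 11 and sacrifice at week 5. MTO140 was injected as organoids, while the 4 parental lines were grafted as 1 mm3 pieces of subcutaneous tumours. The p53 gene itself was not analysed here, so its own level checks no genotype.

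All 4 tumours of a line shared 1 array strip according to the series' design text. Genotype LAKT, line MTO207 and its strip therefore cannot be told apart. The RNA came from whole tumour fragments, in which tumour and host cells are mixed and host cells carry intact alleles, so that fewer cells of a type and less RNA per cell cannot be told apart either. Array medians lay between 4.93 and 5.12 on the log2 scale, but the spread of an array's values differed, with an SD of 1.46 to 1.57 on the MTO207 arrays and 1.47 to 1.83 on the others. All 18 epithelial markers were above the filter, as were 13 of 14 fibroblast markers. The summed epithelial level (log2 of the sum) was 13.32 to 14.10 in MTO207 and 13.24 to 14.72 in the lines with P, and the summed fibroblast level was 12.42 to 13.08 against 11.95 to 13.90.

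Promoter sequences were available for 8 of the 10 genes (RefSeq, GRCm38.p6), as 12 windows from 250 bases before to 50 bases after a transcript start, with none for Trp53inp1 and Zmat3. The 10-base p53 motif, searched by its consensus, which reads the same on both strands, occurred without mismatch in windows of 4 of the 8 genes, Cdkn1a, Mdm2, Ccng1 and Aen. These were 5 of the 12 windows, beside 8.36% of all 32851 windows. The Aen windows overlap and hold the same match. A 20-base site made of 2 adjoining motifs with at most 3 mismatches and intact core letters, which can contain a 10-base match, occurred in windows of Cdkn1a, Ccng1, Bbc3 and Aen. This site was also in 5 of the 12 windows, beside 1.38% of all windows. Of the genes that the comparison below turns on, Ccng1 holds such a site, while Phlda3 and Sesn2 hold neither match. Cdkn1a is shown because its first start has the site with only 1 mismatch, as has Ccng1. Each line gives the 250 bases before the start, 5′ to 3′ on the gene's strand, with the matches in capitals. The windows with their 50 further bases are chr17:29090729-29091028 (plus strand) for Cdkn1a, chr11:40755237-40755536 (minus strand) for Ccng1 and chr1:135765835-135766134 (plus strand) for Phlda3.
Cdkn1a: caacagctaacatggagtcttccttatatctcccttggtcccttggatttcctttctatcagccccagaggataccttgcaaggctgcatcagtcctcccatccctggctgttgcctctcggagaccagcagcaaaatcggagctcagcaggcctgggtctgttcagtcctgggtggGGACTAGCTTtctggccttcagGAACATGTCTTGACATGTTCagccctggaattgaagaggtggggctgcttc
Ccng1: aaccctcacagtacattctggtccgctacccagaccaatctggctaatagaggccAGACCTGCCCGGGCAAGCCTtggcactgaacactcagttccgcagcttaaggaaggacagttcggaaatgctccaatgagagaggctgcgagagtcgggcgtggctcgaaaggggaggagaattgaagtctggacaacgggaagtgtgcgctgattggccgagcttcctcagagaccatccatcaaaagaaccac
Phlda3: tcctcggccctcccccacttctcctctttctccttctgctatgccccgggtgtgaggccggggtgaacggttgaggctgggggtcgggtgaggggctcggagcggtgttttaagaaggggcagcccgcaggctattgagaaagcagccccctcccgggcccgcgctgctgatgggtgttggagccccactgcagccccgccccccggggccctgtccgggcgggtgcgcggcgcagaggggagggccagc
The site of Cdkn1a runs from base -51 to base -32 and that of Ccng1 from base -195 to base -176, counted back from the start. A match describes the letters only, and its absence from a window says nothing about p53 at that gene.

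Against the lines with P, MTO207 had higher levels of Phlda3, which restrains AKT signalling, of Ccng1, a cyclin that feeds back on p53, and of Sesn2, a stress-induced brake on growth signalling. These 3 of the 9 members tested were called, all 3 of them higher, where called means an adjusted p under 0.05 in limma's moderated test over 15556 genes. The share of all genes called in the same comparison was 27.1% (12.3% higher and 14.8% lower), so that 3 of 9 (33.3%) is close to the background and the count alone sets the members apart from nothing. The median member difference was 0.28 on the log2 scale against -0.01 for all genes, and 8 of 9 members lay above 0, as did 49.2% of all genes. With line as a random block (1 correlation of 0.363 among tumours of a line), no member and none of the 15556 genes passed (0%). There 617 genes and 1 member had an unadjusted p under 0.05, fewer genes than that threshold passes by chance. A fit of the 5 line means, which weighs 1 line against 4, also passed no gene (0%). The smallest exact permutation p for 1 line against 4 is 0.2. Quantile normalization of the deposited values, which gives every array the same spread, raised the members called to 7, all higher (Ccng1 1.14, Cdkn1a 0.89, Aen 0.71, Sesn2 0.63, Phlda3 0.59, Mdm2 0.56 and Bbc3 0.46), beside 21.6% of all genes. It also moved the median of all genes from -0.01 to 0.06 and the share of calls that were higher from 45.3% to 63.7%.

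**Figure D1:**
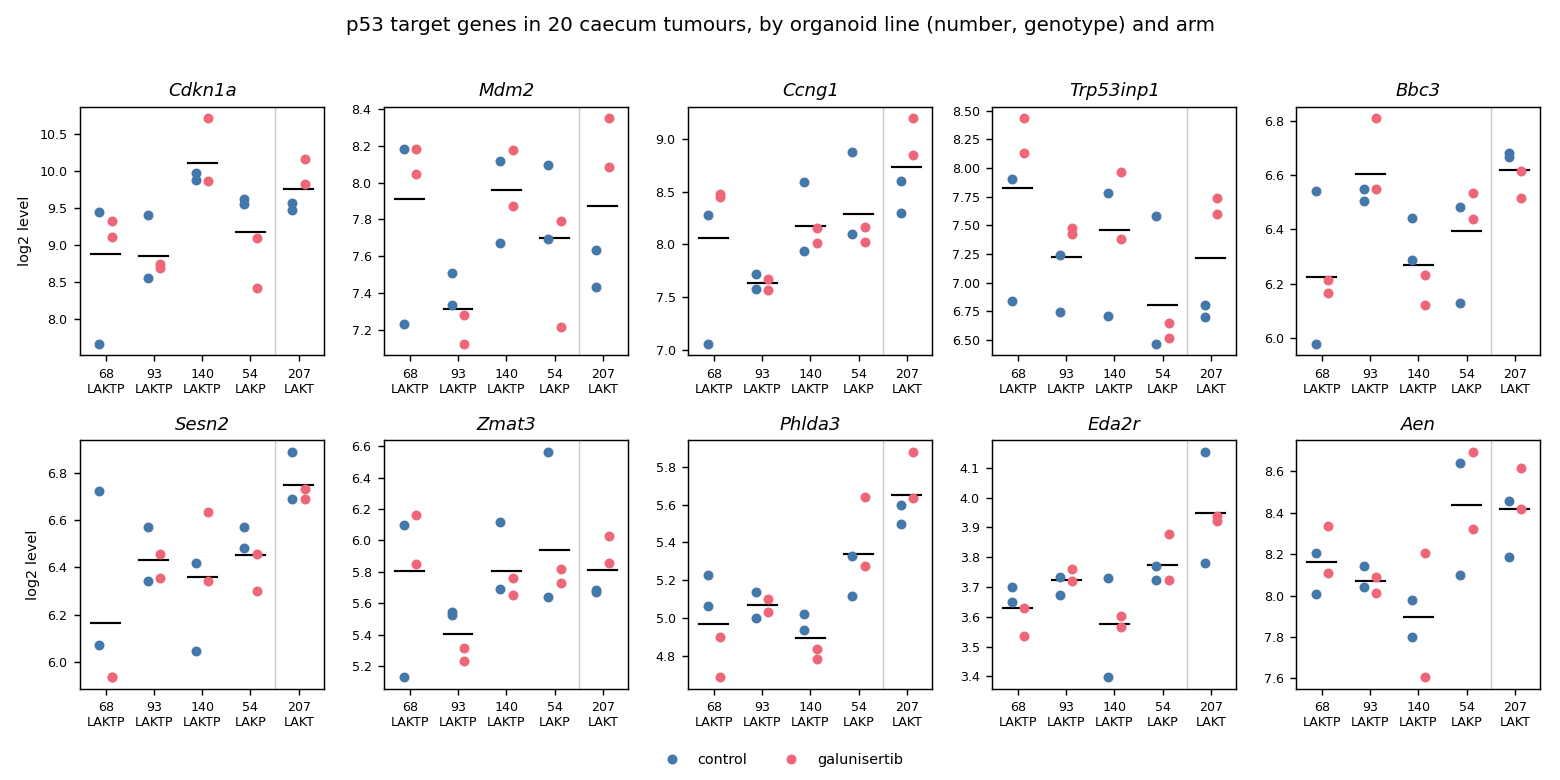
Log2 level of each of the 10 p53 target genes in the 20 tumours (1 point per tumour, control and galunisertib in 2 colours), by organoid line with its genotype below; the black bar is the mean of the 4 tumours of a line. The 4 MTO207 tumours lie at 5.50 to 5.88 for Phlda3, where 1 of the 16 other tumours (MTO54, 5.64) reaches that range, while for Cdkn1a MTO140 lies highest (9.86 to 10.71).

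The arrest genes came first. Cdkn1a encodes p21, the inhibitor of cyclin-dependent kinases through which p53 stops the cell cycle. Its log2 level in the MTO207 tumours was 9.47 and 9.57 in the controls and 10.16 and 9.83 after galunisertib, and in the 16 tumours with P it ran from 7.67 over a median of 9.37 to 10.71. The line means (± SD, n = 4 tumours each) were 10.11 ± 0.41 in MTO140, 9.76 ± 0.31 in MTO207, 9.18 ± 0.56 in MTO54, 8.88 ± 0.82 in MTO68 and 8.85 ± 0.38 in MTO93. The highest Cdkn1a levels were thus in a line whose genotype has P, and 6 tumours with P exceeded the lowest MTO207 tumour. MTO207 differed from the 4 lines by 0.50 (SE 0.26, adjusted p = 0.13), which did not pass, and the second probe set gave 0.30 (SE 0.28). Neighbouring lines in this order overlapped in range. Line means and SDs, here and below, take in both arms.

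Ccng1 encodes cyclin G1, an early and strongly induced p53 target that acts on Mdm2 through a phosphatase. Its log2 level was 8.60 and 8.30 in the MTO207 controls and 9.19 and 8.85 after galunisertib. In the 16 tumours with P the lowest value was 7.06, the median 8.06 and the highest 8.87. MTO207 had the highest line mean, 8.73 ± 0.38, followed by MTO54 at 8.29 ± 0.39, MTO140 at 8.18 ± 0.29, MTO68 at 8.07 ± 0.68 and MTO93 at 7.64 ± 0.08 (SD, n = 4), and 4 of the 16 tumours with P exceeded the lowest MTO207 tumour. The ranges of MTO207 and MTO54 overlapped, while all 4 MTO93 tumours (7.57 to 7.73) lay below all MTO207 tumours. The difference was 0.69 (SE 0.20, adjusted p = 0.0286), the 121st highest of 15556 genes. A second probe set of Ccng1 gave 0.65 and a further, dimmer one 0.21.

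Mdm2, the feedback inhibitor of p53, read 7.63 and 7.43 in the MTO207 controls and 8.35 and 8.08 after galunisertib, against 7.12 to 8.18 with a median of 7.74 in the tumours with P. The 2 MTO207 controls lay among the lower tumours of the whole set and 1 treated MTO207 tumour was the highest of the 20. Line means ran from 7.96 ± 0.23 in MTO140, 7.91 ± 0.46 in MTO68 and 7.87 ± 0.42 in MTO207 to 7.70 ± 0.37 in MTO54 and 7.31 ± 0.16 in MTO93 (SD, n = 4). The first 3 of these means differed by less than their SDs, which include any shift between arms. Within MTO207 the SD was 0.14 in the controls and 0.19 after galunisertib. The MTO207 difference of 0.15 (SE 0.17, adjusted p = 0.471) did not pass. A second, dimmer probe set of Mdm2 gave 0.28 (SE 0.10, adjusted p = 0.0535 over all probe sets).

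Sesn2 encodes sestrin 2, which lowers mTORC1 activity under stress. Its level in the MTO207 tumours was 6.69 and 6.89 in the controls and 6.69 and 6.73 after galunisertib, and in the tumours with P it ran from 5.94 over a median of 6.39 to 6.72. Only 1 tumour with P, MTO68 control replicate 2 at 6.72, exceeded the lowest MTO207 tumour. The line means were 6.75 ± 0.10 in MTO207, 6.45 ± 0.11 in MTO54, 6.43 ± 0.11 in MTO93, 6.36 ± 0.24 in MTO140 and 6.17 ± 0.38 in MTO68 (SD, n = 4). MTO207 differed by 0.40 (SE 0.12, adjusted p = 0.0327), and the second probe set gave 0.33.

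Among the genes linked to cell death and survival, Phlda3 had the smallest p of the 9 members. It encodes a pleckstrin homology protein that competes with AKT at the membrane. The MTO207 tumours read 5.60 and 5.50 in the controls and 5.88 and 5.63 after galunisertib, whereas the tumours with P ran from 4.69 over a median of 5.05 to 5.64. A single tumour with P, the second treated MTO54 tumour, reached into the MTO207 range. Line means were 5.65 ± 0.16 in MTO207, 5.34 ± 0.22 in MTO54, 5.07 ± 0.06 in MTO93, 4.97 ± 0.23 in MTO68 and 4.90 ± 0.11 in MTO140 (SD, n = 4). The difference of 0.58 (SE 0.083, adjusted p = 0.00788) had the 11th smallest p of all genes and was the 241st highest. With line as a random block its adjusted p was 0.603.

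Bbc3 encodes PUMA, the pro-apoptotic BCL2-family protein through which p53 kills crypt cells. Its MTO207 levels were 6.68 and 6.67 in the controls and 6.51 and 6.62 after galunisertib, against 5.98 to 6.81 with a median of 6.44 in the tumours with P. MTO207 and MTO93 had nearly the same mean, 6.62 ± 0.08 and 6.60 ± 0.14 (SD, n = 4), and the other 3 lines lay at 6.23 to 6.40. The difference from the 4 lines was 0.25 (SE 0.11, adjusted p = 0.0917).

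Aen encodes an exonuclease that degrades DNA in apoptosis. It read 8.46, 8.19, 8.62 and 8.42 in the MTO207 tumours (controls first) and 7.61 to 8.70 with a median of 8.10 in the tumours with P. MTO54 and MTO207 shared the top of the order at 8.44 ± 0.28 and 8.42 ± 0.18, above MTO68, MTO93 and MTO140 at 8.16 ± 0.14, 8.07 ± 0.06 and 7.90 ± 0.26 (SD, n = 4). The difference of 0.28 (SE 0.14, adjusted p = 0.129) did not pass. The 2 dimmer probe sets of Aen gave 0.25 (SE 0.11, adjusted p = 0.0885) and 0.22 (SE 0.076, adjusted p = 0.0487 over all probe sets).

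Trp53inp1 encodes a cofactor that favours the pro-apoptotic activity of p53. It was the member whose difference lay below 0, at -0.12 (SE 0.23, adjusted p = 0.699), and this sign turned to 0.22 after quantile normalization. MTO207 had 6.70 and 6.81 in the controls and 7.60 and 7.74 after galunisertib, and the tumours with P ran from 6.47 over 7.40 to 8.43. MTO68 had the highest mean (7.83 ± 0.69) and MTO54 the lowest (6.81 ± 0.52, SD, n = 4).

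Zmat3 encodes a zinc finger protein that binds RNA and affects splicing. Its MTO207 levels, 5.69, 5.67, 6.03 and 5.85 with the controls first, lay inside the range of the tumours with P, 5.13 to 6.56 with a median of 5.71. The line means spanned 5.40 ± 0.16 in MTO93 to 5.94 ± 0.43 in MTO54 (SD, n = 4), with MTO207 at 5.81 ± 0.17. MTO207 differed by 0.07 (SE 0.17, adjusted p = 0.736).

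Eda2r encodes a receptor of the TNF receptor family for ectodysplasin A2. It read 4.15, 3.78, 3.92 and 3.94 in MTO207 (controls first) and 3.40 to 3.88 in the tumours with P, all below the filter level of 4.16. Values this dim give little above background, so Eda2r was not tested, although 1 tumour with P exceeded the lowest MTO207 tumour.

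No member had all 4 MTO207 tumours above or below all 16 tumours with P, which held for 0.302% (above) and 0.399% (below) of all genes. MTO207 had the highest of the 5 line means for Ccng1, Bbc3, Sesn2 and Phlda3, 4 of 9 members, and for 29.4% of all genes.

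The difference depended on which line with P was set against MTO207. Against MTO68, 5 of 9 members were called, all higher in MTO207 (Cdkn1a 0.87, Ccng1 0.67, Bbc3 0.39, Sesn2 0.58 and Phlda3 0.68), beside 48.2% of all genes (21.8% higher). Against MTO140, 4 members were called higher (Bbc3 0.35, Sesn2 0.39, Phlda3 0.76 and Aen 0.52), beside 49.7% of all genes (25.2% higher), while Cdkn1a had a difference of -0.35 (SE 0.32, adjusted p = 0.37). No member passed against MTO54 or MTO93, where 1.27% and 0.0257% of all genes passed. The 4 comparisons share the MTO207 tumours.

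**Figure D2:**
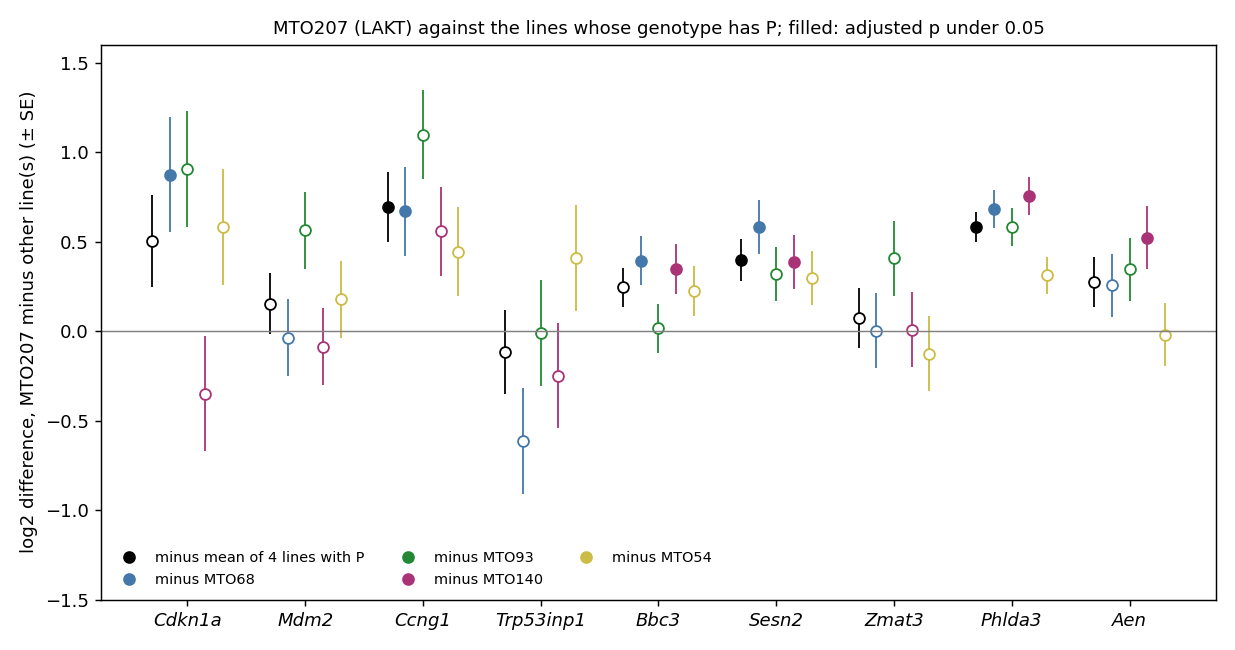
Log2 difference between MTO207 and the mean of the 4 lines with P (black) and each of these lines (colours) for the 9 members tested, with the SE of the fit as bars; filled points have an adjusted p under 0.05. Phlda3 lies between 0.31 and 0.76 against every line, while Cdkn1a runs from -0.35 against MTO140 to 0.91 against MTO93.

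The MTO93 arrays had a spread (SD 1.52 to 1.61) near that of the MTO207 arrays, and 4 genes in all were called against that line. The median member difference was 0.41 against 0.01 for all genes, and 8 of 9 members lay above 0. Ccng1 differed by 1.10 (SE 0.25, adjusted p = 0.317), the 19th highest of 15556 genes, and Cdkn1a by 0.91 (SE 0.32, adjusted p = 0.932), the 33rd highest. Phlda3 at 0.58 (SE 0.11, adjusted p = 0.105) and Mdm2 at 0.56 (SE 0.21, adjusted p = 0.997) were the 100th and 110th highest. Ranked by p, Phlda3 was 9th, Ccng1 28th, Cdkn1a 230th and Mdm2 304th. Bbc3 (0.02) and Trp53inp1 (-0.01) differed little. None of these differences passed the test over all genes. MTO54, the LAKP line, lacks T as well as having P, so T sets it apart from MTO207 too. Against it the median member difference was 0.30 beside 0.04 for all genes. Cdkn1a stood at 0.58 (SE 0.32), Ccng1 at 0.44 (SE 0.25) and Phlda3 at 0.31 (SE 0.11), while Zmat3 (-0.13) and Aen (-0.02) lay below 0. Against the 3 LAKTP lines alone, 3 of 9 members were called, all higher, beside 33.9% of all genes called. The median member difference there was 0.375 beside -0.008 for all genes.

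The spread of an array's values moved with several members. Over the 20 tumours the Pearson correlation of the level with the array's SD was -0.85 for Bbc3, -0.80 for Sesn2, -0.70 for Eda2r and -0.63 for Phlda3, and 0.67 for Mdm2, 0.64 for Trp53inp1 and 0.62 for Zmat3. It was weaker for Cdkn1a (0.36), Ccng1 (0.33) and Aen (-0.19). These tumours share lines and strips, and all probe sets of an array share its spread. With the SD as a covariate, an alternative chosen after seeing the data, the share of all genes called fell from 27.1% to 0.0579%, which is 9 genes. Ccng1 was one of them, at 1.34 (SE 0.13, adjusted p = 0.00181), the smallest p of all genes. Phlda3 kept a difference of 0.53 (SE 0.11, adjusted p = 0.171), Sesn2 fell to 0.10 (adjusted p = 0.888) and Bbc3 to -0.02 (adjusted p = 0.986), while Cdkn1a stood at 1.03 (SE 0.32, adjusted p = 0.369) and Mdm2 at 0.64 (SE 0.15, adjusted p = 0.2).

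**Figure D3:**
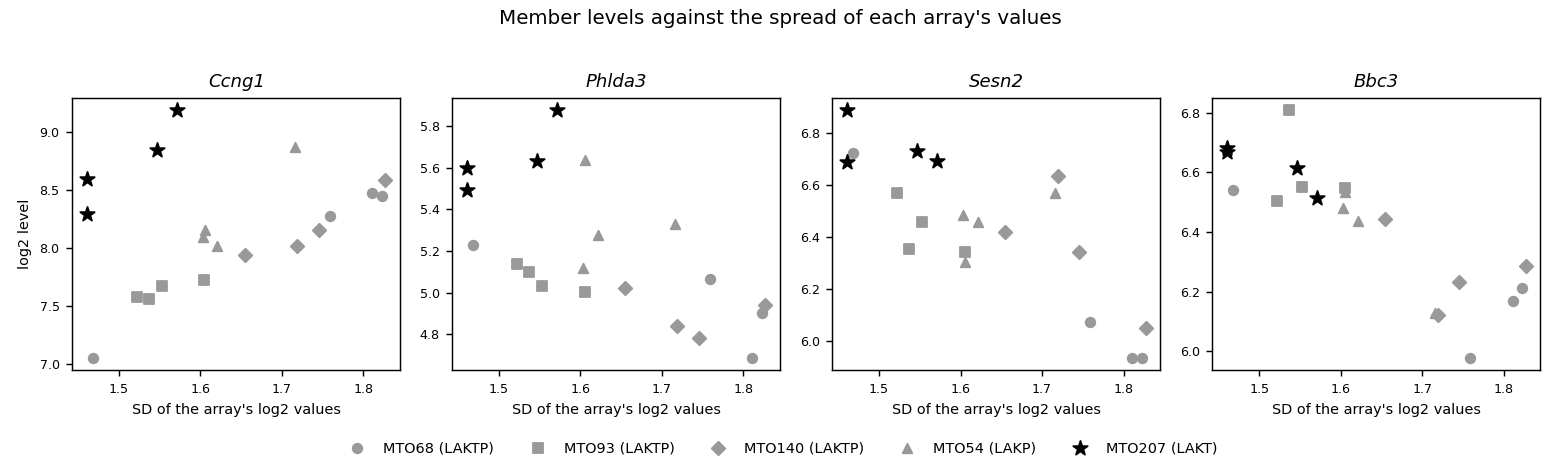
Log2 level of Ccng1, Phlda3, Sesn2 and Bbc3 in the 20 tumours against the SD of all log2 values on the same array, with MTO207 as black stars and the lines with P as grey symbols. The MTO207 arrays have SDs of 1.46 to 1.57; at like SDs the Ccng1 values of MTO207 (8.30 to 9.19) lie above those of MTO93 (7.57 to 7.73), and the Bbc3 values do not separate.

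Each arm was also compared alone. In the galunisertib arm Ccng1 differed by 0.96 (SE 0.13, adjusted p = 0.0122), Phlda3 by 0.72 (SE 0.12, adjusted p = 0.014) and Sesn2 by 0.41 (SE 0.11, adjusted p = 0.0471). All 9 members lay above 0, beside 47.9% of all genes, and 12.7% of all genes were called. In the control arm no gene was called (0%), although 3503 genes and 1 member had an unadjusted p under 0.05. There 6 of 9 members lay above 0, beside 49.9% of all genes. Ccng1 then differed by 0.43 (SE 0.36), Phlda3 by 0.44 (SE 0.13) and Sesn2 by 0.39 (SE 0.22). The control arm holds MTO68 control replicate 2, which stood apart from the other MTO68 tumours in Mdm2 and Ccng1 and had an array SD of 1.47 against 1.76 to 1.82. Without it Ccng1 differed by 0.62 and Cdkn1a by 0.39 over both arms.

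The number of calls depended on each MTO207 tumour. Leaving out 1 MTO207 tumour at a time left 0 or 1 member called and 5 to 392 genes, with Ccng1 at 0.61 to 0.78 and Phlda3 at 0.52 to 0.64. The epithelial marker list had 4 of 18 genes called lower in MTO207 and none higher (22.2%, beside 27.1% of all genes called and 14.8% called lower), with a median difference of -0.32. With the epithelial score as a covariate Phlda3 alone of the members passed (0.50, SE 0.086, adjusted p = 0.0421), with 22 genes in all (0.141%). Ccng1 stood at 0.82 (SE 0.22, adjusted p = 0.117) and Cdkn1a at 0.85 (SE 0.23, adjusted p = 0.118) in that fit.

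The members did not move as 1 group over the 20 tumours. Levels of Ccng1 and Zmat3 had a Pearson correlation of 0.82, Mdm2 and Zmat3 of 0.77, Mdm2 and Ccng1 of 0.76 and Cdkn1a and Mdm2 of 0.71. Phlda3 and Eda2r correlated at 0.77 and Phlda3 and Aen at 0.68, whereas Mdm2 and Bbc3 correlated at -0.70 and Cdkn1a and Phlda3 at -0.04. Genes outside the list whose pattern was most like Ccng1 were Slc25a48 (0.87), Ppl (0.86) and Wdfy2 (0.82). For Phlda3 they were Selenov (0.84), Sapcd1 (0.83) and Ldhb (0.82), and for Sesn2 they were Stox2, Trim66 and Sez6l (0.90, 0.89 and 0.89). All are Pearson correlations over the same 20 tumours, which share lines and arrays.

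A wider list of 36 further p53 targets with a probe set gave 7 called higher and 2 called lower in MTO207, beside 12.3% and 14.8% of all genes. Together 9 of 36 (25%) were called, which is close to the 27.1% of all genes. The median difference was -0.03, with 15 genes above 0 and 21 below. Psrc1, which encodes a microtubule-associated protein, read 6.11 and 5.69 in the MTO207 controls and 6.17 and 6.09 after galunisertib, above all 16 tumours with P (4.82 to 5.59). Gtse1, whose product binds microtubules and p53, also did not overlap, with 5.83 to 6.08 in MTO207 against 5.26 to 5.77. All 4 MTO207 tumours lay above all 16 tumours with P for 0.302% of all genes. The genes named from this list were picked by smallest p in this same comparison, so their separation partly follows from that choice. The differences were 0.66 (SE 0.11) for Psrc1 and 0.41 (SE 0.068) for Gtse1, with an adjusted p of 0.0118 each. Ephx1, which encodes an epoxide hydrolase, read 6.05 to 6.44 in MTO207 and 4.86 to 6.24 in the tumours with P, a difference of 0.90 (SE 0.15, adjusted p = 0.0118). It was among the 9 genes called with the array SD as a covariate (1.23, SE 0.19, adjusted p = 0.0351). Dglucy was called higher (0.51, SE 0.14), while Fbxw7, a ubiquitin ligase subunit, and Triap1, an inhibitor of apoptosis, were called lower (-0.44, SE 0.14, and -0.56, SE 0.19). With the array SD as a covariate none of these others passed: Psrc1 stood at 0.77 (adjusted p = 0.146) and Gtse1 at 0.37 (adjusted p = 0.171), while Dglucy fell to 0.06 (adjusted p = 0.939), Fbxw7 stood at -0.04 (adjusted p = 0.963) and Triap1 changed sign (0.08, adjusted p = 0.939). The Pearson correlation of the level with the array SD was -0.91 for Dglucy, 0.93 for Fbxw7 and 0.84 for Triap1 over the 20 tumours.

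Of 20 regulators of p53, none was called higher and 3 were called lower, beside 12.3% and 14.8% of all genes, with a median difference of -0.14. A count of 3 in 20 is close to that background. Cdkn2a, whose alternative product ARF blocks Mdm2 and which p53 is known to keep low, read 4.37 and 4.51 in the MTO207 controls and 4.42 and 4.40 after galunisertib. All 16 tumours with P lay above these values, at 4.90 to 6.22, as was the case for 0.399% of all genes. Cdkn2a was named for its small p in this same comparison. Its difference of -1.09 (SE 0.14, adjusted p = 0.00723) had the 4th smallest p of all genes. It was -0.97 (SE 0.16, adjusted p = 0.0353) with the epithelial score as a covariate and -0.66 (SE 0.13, adjusted p = 0.146) with the array SD. Rchy1, a ubiquitin ligase for p53, and Trp53bp1, a DNA damage response protein, were called lower at -0.68 (SE 0.15) and -0.62 (SE 0.19), and 1 array strip and 1 line underlie these values too. With the array SD as a covariate Rchy1 stood at -0.33 (adjusted p = 0.65) and Trp53bp1 at -0.24 (adjusted p = 0.863). The Trp53bp1 difference was -1.14 in the control tumours alone, -0.09 (adjusted p = 0.824) in the galunisertib tumours alone and -0.24 (adjusted p = 0.263) after quantile normalization. Against MTO54 alone, Gtse1 (0.53), Ephx1 (0.93) and Cdkn2a (-1.21) passed. This makes 2 of the 36 further targets and 1 of the 20 regulators, beside 1.27% of all genes. Psrc1 did not pass there (0.58, SE 0.14, adjusted p = 0.0536).

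**Figure D4:**
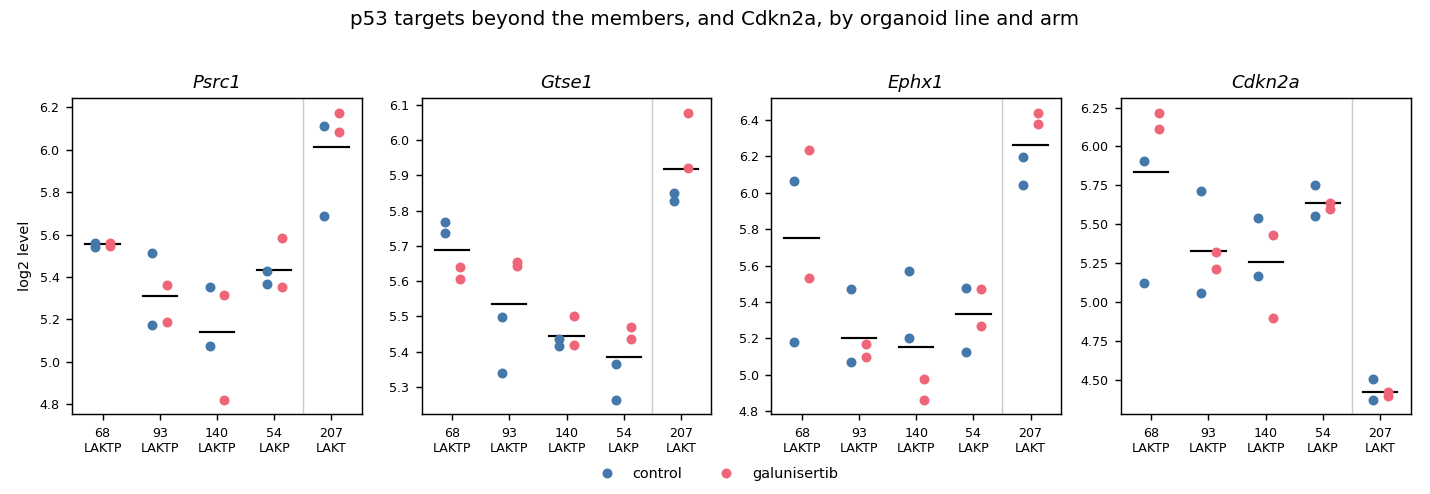
Log2 levels of Psrc1, Gtse1, Ephx1 and Cdkn2a in the 20 tumours by line and arm, with the mean of 4 tumours as a bar. The genes were named for their small p in the comparison of MTO207 with the lines with P. The MTO207 tumours lie above all tumours with P for Psrc1 and Gtse1 and below all of them for Cdkn2a (4.37 to 4.51 against 4.90 to 6.22), and overlap with MTO68 for Ephx1.

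Of 21 cell cycle genes that p53 represses through p21, 2 were called, both higher in MTO207 (9.52%, beside 27.1% of all genes called and 12.3% called higher), and the median difference was 0.015. Foxm1, which encodes a transcription factor of mitotic genes, read 7.55 to 7.62 in MTO207 and 6.92 to 7.40 in the tumours with P, a difference of 0.48 (SE 0.10, adjusted p = 0.0179). Ttk, a spindle checkpoint kinase, differed by 0.36 (SE 0.12, adjusted p = 0.0394). Array SD had a Pearson correlation of -0.72 with Foxm1 and 0.71 with Cdkn2a over the 20 tumours, and with that SD as a covariate neither cell cycle gene passed (Foxm1 0.39, adjusted p = 0.357, and Ttk 0.14, adjusted p = 0.863).

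Galunisertib against control was compared within lines. Over the 5 lines no member passed, and none of the 15556 genes did (0%), although 1238 genes had an unadjusted p under 0.05. Trp53inp1 was the member among these, at 0.45 (SE 0.20, adjusted p = 0.614), with treated above control means in 4 of 5 lines. Its second probe set gave 0.34. The other 8 members differed by -0.10 (Sesn2) to 0.15 (Ccng1).

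Per line, no member passed in any of the 5 lines, beside 2.01% of all genes in MTO68, 0.00643% in MTO140 and 0% in the other 3. In MTO207 the treated tumours lay above both controls for Cdkn1a, Mdm2, Ccng1, Trp53inp1, Zmat3 and Phlda3 and below them for Bbc3, which makes 6 and 1 of 9 members beside 26.3% and 31.6% of all genes. Mdm2 had a difference of 0.69 (SE 0.30, adjusted p = 0.646), Trp53inp1 of 0.91 (SE 0.42, adjusted p = 0.646), Ccng1 of 0.57 (SE 0.35) and Cdkn1a of 0.47 (SE 0.46). The MTO207 arrays differed between arms in spread, with an SD of 1.46 on both control arrays and 1.55 and 1.57 on the treated ones, and the epithelial markers were above control in 18 of 18 genes with none called (median 0.44). Their part in the result was not tested.

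In MTO54 the treated tumours lay below both controls for Cdkn1a (9.09 and 8.42 after galunisertib, 9.63 and 9.56 in the controls) and for Sesn2, with none above, beside 16.4% and 17.8% of all genes. The Cdkn1a difference there was -0.84 (SE 0.46, adjusted p = 0.999). In MTO93 Trp53inp1 and Bbc3 lay above and Mdm2 and Zmat3 below (18.1% and 14.4% of all genes), and in MTO140 Bbc3 and Phlda3 lay below and none above (12.6% and 8.32% of all genes). In MTO68 Ccng1 and Trp53inp1 lay above and Sesn2 and Phlda3 below (31.2% and 23.2% of all genes). These MTO68 values rest on the control pair. Without control replicate 1, which leaves the low replicate 2 as the only control and takes its spread from the other groups, 6 of 9 members passed, beside 53.5% of all genes. Without control replicate 2, no member passed, beside 0.257% of all genes, and the differences were -0.23 for Cdkn1a, -0.07 for Mdm2, -0.09 for Zmat3 and 0.19 for Ccng1.

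**Figure D5:**
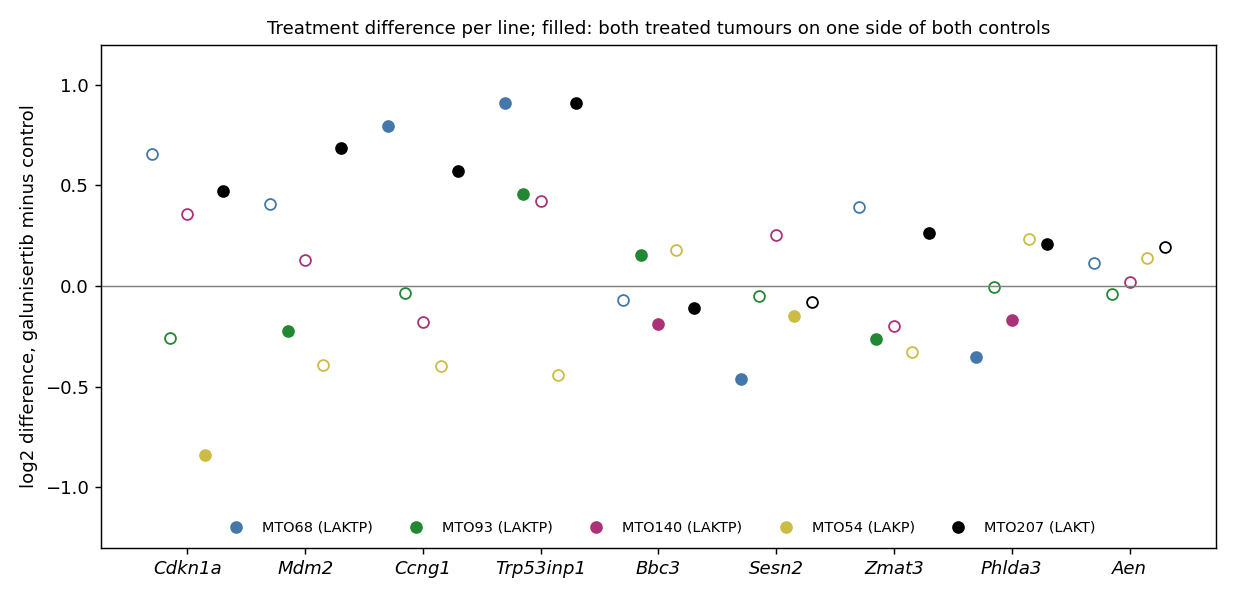
Galunisertib minus control difference in mean log2 level (2 tumours each) for the 9 members tested in each of the 5 lines; filled points mark genes whose treated tumours both lie on one side of both controls. MTO207 has 6 filled points above 0 and 1 below, and no difference in the plot passed the test over all genes.

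The treatment difference in MTO207 was set against the mean treatment difference of the 4 lines with P as an interaction. No member and none of all genes passed (0%). An unadjusted p under 0.05 was found for 724 genes and no member, fewer genes than that threshold passes by chance. The largest member value was that of Mdm2, 0.71 (SE 0.34, adjusted p = 0.883), and 8 of 9 members lay above 0 with a median of 0.36 beside -0.04 for all genes. With 2 tumours per line and arm, the SEs of the members in this test ran from 0.17 (Phlda3) to 0.51 (Cdkn1a).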

How the data were processed

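RNA of 20 tumours was measured on 20 Affymetrix arrays, 1 sample each. The deposited values are log2 levels per probe set, for which the submitters' processing notes name RMA and affy, both without a version. The table held 45141 probe sets, of which 28898 had a single gene symbol, 551 several and 15588 none, with 104 control probe sets. Of the single-symbol probe sets, 28689 had an Entrez ID found in RefSeq and took the symbol given there, which could be unchanged. Each of 17097 genes kept its brightest probe set by mean, and 15556 genes that exceeded 4.16, the 25th percentile of the table, on 2 or more arrays entered the tests.

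Group means of 10 groups (line by arm) were fitted with limma 3.58.1 (R 4.3.3; lmFit, eBayes with trend) and p-values were adjusted by Benjamini-Hochberg over all genes at 0.05. The labels give 2 biological replicates per line and arm. LY in the labels was taken to mean galunisertib. The number of arrays limits the precision. The members and gene lists were chosen with earlier results of these data known. Named beyond the members are up to 4 genes called higher and 4 called lower of smallest p per list, and the 3 genes most correlated with each member called.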

Additional observations from a re-analysis of the deposited data

Results flagged for a closer look

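Of 50 groups of 4 tumours (10 genes in 5 lines), 6 held a tumour whose gap to the nearest of the other 3, divided by the range of the group, was past Dixon's critical value. That value passes about 1 in 20 groups by chance where groups are independent, and here 2 tumours account for 4 of the 6. Cdkn1a was 10.71 in MTO140 galunisertib replicate 2, against 9.86 to 9.98 in the other tumours of that line. MTO68 control replicate 2 was low in Mdm2, 7.23 against 8.05 to 8.18, and in Ccng1, 7.06 against 8.28 to 8.47. MTO54 control replicate 1 was high in Ccng1, 8.87 against 8.02 to 8.16, and in Trp53inp1, 7.58 against 6.47 to 6.65. Bbc3 was 6.81 in MTO93 galunisertib replicate 2, against 6.50 to 6.55.

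In 7 cases (a gene in a pair of lines, with 5 pairs of lines among them), both treated tumours lay above both controls in 1 line and below them in the other, and none of these differences between lines was tested. The treatment difference of Cdkn1a in MTO207 exceeded that in MTO54 by 1.31. Between MTO207 and MTO93 it differed by 0.91 for Mdm2 and by 0.53 for Zmat3. For Phlda3, MTO207 exceeded MTO68 by 0.56 and MTO140 by 0.38. For Bbc3, MTO93 exceeded MTO140 by 0.34 and MTO207 by 0.26.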

How the results depend on the processing

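In MTO207 against the 4 lines with P, the 3 members and 4222 genes called became 7 members with quantile normalization, 5 members and 8153 genes with array weights, 1 and 22 with the epithelial score, 1 and 981 without MTO140, 0 and 0 in the control tumours alone, 0 and 0 with line as a random block, 0 and 0 in a fit of the 5 line means, and 1 and 9 with the array SD as a covariate, chosen after seeing the data. The galunisertib tumours alone gave 1969 genes. Leaving out 1 array at a time gave 0 to 4 members and 5 to 8350 genes, the highest without MTO68 control replicate 2 and the lowest without MTO207 galunisertib replicate 1. Against MTO68, 5 members became 3 with the mean of a gene's probe sets and with array weights, and 2 to 5 with 1 array left out. Against MTO140, 4 became 2 with the second probe set and with median centring, 0 with the epithelial score, 1 with the array SD, and 1 to 5 with 1 array left out. Against MTO93, 0 became 2 with quantile normalization and with array weights, and 1 with the fibroblast score and with the array SD. Against MTO54, 0 became 1 in each of these 4 settings. Galunisertib in MTO68 gave 6 members with the fibroblast score, beside 51.3% of all genes, and 0 to 6 with 1 array left out (6 without control replicate 1, beside 53.5% of all genes). Leaving out an array leaves a lone tumour in its group, which is assumed to vary like the other groups. Signs turned for Mdm2 after quantile normalization against MTO68 (0.53) and MTO140 (0.53), and with the array SD for Triap1 against the 4 lines (0.078) and for Bbc3 (-0.049) and Sesn2 (-0.061) against MTO140. The causes were not tested. Of 3932 single-gene differences compared, 196 changed sign while past the threshold in neither setting. No paired analysis was possible because the labels carry no shared replicate numbers; treatment was compared within lines.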
